A study of Mus musculus with 11 samples.

Results

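Mir142 and Mir155 are microRNA genes that matter to T cells. Binding of Foxp3, Elf1, Ets1 and Cbfb around them was read from chromatin immunoprecipitation sequencing (ChIP-seq) of mouse CD4 T cells. Each locus was taken as a window of 70 kb in mouse build mm9, chr11:87530000-87600000 for Mir142 and chr16:84680000-84750000 for Mir155. The Mir142 window was chosen by its cluster of Foxp3 peaks, so its Foxp3 count is a description and supports nothing. The members are all deposited peaks and positions inside the windows. They numbered 8 of 2886 Foxp3 peaks, and 212 of the 1059098 binding positions listed for the other factors. Of these positions 146 lay in the Mir142 window and 66 in the Mir155 window.

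The cells came from lymph nodes and spleen of mice about 8 weeks old and were sorted, straight from the animal, on green fluorescence (GFP) that reports Foxp3. Foxp3-positive CD4 cells (regulatory T cells, Treg) were compared with Foxp3-negative CD4 cells, called CD4 here. The labels give no strain, no treatment and no further allele for either group, and no marker of cell identity could be read from these lists. Elf1 and Ets1 were mapped in Treg and in CD4 cells and Cbfb in Treg cells, with 1 library each, and Foxp3 in Treg cells with 3 libraries from 2 replicates, which the authors pooled into 1 peak list. A Cbfb library of CD4 cells, labelled as low in quality, and 2 Treg input libraries were not analysed here.

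MicroRNAs are short RNAs, cut from a hairpin, that pair through bases 2 to 8 (the seed) with target mRNAs and lower their output. The miR-142 pair is abundant in blood cells of nearly every lineage, and Treg cells of mice need it to restrain autoimmunity. miR-155 is cut from the non-coding transcript Mir155hg (also called Bic), rises when lymphocytes are activated, and supports Treg numbers and fitness in mice, in part by repressing Socs1. Foxp3 is the factor that defines Treg cells. Elf1 and Ets1 belong to the ETS family, which recognises a GGAA core, and Cbfb is the partner of Runx proteins that does not itself touch DNA.

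The products of the loci are shown so that the genes behind the windows can be told by sequence. Both hairpins are on the plus strand, Mir142 on chromosome 11 and Mir155 on chromosome 16, from RefSeq (GRCm38.p6), with the mature arms in capitals.
Mir142 hairpin: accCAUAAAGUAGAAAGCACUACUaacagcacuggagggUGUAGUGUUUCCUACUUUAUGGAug
Mir155 hairpin: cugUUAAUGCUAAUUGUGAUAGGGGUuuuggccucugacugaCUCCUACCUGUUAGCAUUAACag

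The mature miRNAs follow with the seed in capitals, and include miR-142b, which is cut from the opposite strand of the same place.
mmu-miR-142a-5p: cAUAAAGUagaaagcacuacu
mmu-miR-142a-3p: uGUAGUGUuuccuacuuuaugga
mmu-miR-142b: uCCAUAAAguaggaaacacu
mmu-miR-155-5p: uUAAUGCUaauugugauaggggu
mmu-miR-155-3p: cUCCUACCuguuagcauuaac

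These 5 seeds differ from each other. The RefSeq table holds 1738 mature mouse miRNAs. Outside a single chromosome that holds neither locus, no other carrier of these seeds was found in it. Any matches on that chromosome were left out of the list and are not reported here. The 64 bases of the Mir142 hairpin lie whole in the complement of the Mir142b hairpin, and miR-142b pairs with miR-142a-3p over all of its 20 bases. In RefSeq the nearest protein-coding genes are Supt4a and Tspoap1 on the sides of Mir142, and Ncam2 and Mrpl39 on the sides of Mir155. These tables are on another build, so the windows were not checked against an mm9 annotation. No position below is placed relative to a hairpin, a promoter or an exon, and no sequence under the peaks was read.

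The Mir142 window held 7 Foxp3 intervals, each 200 bp wide, and the Mir155 window 1. In order of position, intervals 2 to 7 of the Mir142 window formed a run of 6 over 14872 bp, at chr11:87558546-87573418, with gaps of 834 to 4359 bp. Interval 1 stood 23844 bp before them. Of 458 runs of 2 or more Foxp3 intervals in the genome, with gaps of at most 10000 bp from end to start, 5 had 6 or more members and 2 had more than 6. Outside the windows the nearest Foxp3 intervals lay 289600 and 358810 bp away at Mir142, and 95618 and 85127 bp away at Mir155.

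The other factors were given as single-base positions with a score, a false discovery rate (FDR) and a fold enrichment over a control that is not named in the sources used here. Positions with an FDR of at most 0.01 are used unless stated. Read depth is unknown, so list lengths and folds are the libraries' own. The intervals given cover counting error only, and with 1 library per group no difference below has a replicate check or a p-value.

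Among positions that passed the FDR limit, Ets1 set the Mir142 window apart most. The Treg Ets1 list had 23 positions there (95% Poisson interval 14.6 to 34.5) and the CD4 Ets1 list 26 (17.0 to 38.1). Averaged over 37706 windows of 70 kb that tile the chromosomes, these lists had 1.63 and 1.11 positions per window. As many or more were found in 43 windows for Treg Ets1 and 31 for CD4 Ets1. Elf1 was also frequent, with 22 Treg positions (13.8 to 33.3) and 17 CD4 positions (9.90 to 27.2), against means of 4.18 and 1.42. It was not far behind Ets1, since only 75 windows had as many for Treg Elf1 and 53 for CD4 Elf1. The 7 Treg Cbfb positions (2.81 to 14.4), against a mean of 3.22, were matched or passed in 3139 windows. This order depended on the FDR limit. Among all deposited positions, Treg Cbfb had 14 at Mir142 against a mean of 4.29, and only 120 windows had as many. That was near the 72 windows for Treg Ets1, 131 for CD4 Ets1, 93 for Treg Elf1 and 85 for CD4 Elf1. The window was also picked for Foxp3 intervals, and 6 of its Treg and 9 of its CD4 Ets1 positions lay at them.

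Around Mir155 binding was nearer to the rest of the genome. The window had 8 Treg and 4 CD4 Ets1 positions, 11 Treg and 5 CD4 Elf1 positions, and 5 Treg Cbfb positions. Between 951 windows (Treg Ets1) and 9781 windows (Treg Cbfb) held as many. At equal list length, with the 10000 highest scores of each library, the Mir142 window held 18 Treg and 18 CD4 Ets1 positions. Only 10 windows had as many for Treg Ets1 and 7 for CD4 Ets1. The same lists put 4 Treg and 2 CD4 Ets1 positions in the Mir155 window. For Elf1 they put 5 Treg and 6 CD4 positions in the Mir142 window, and 2 of each in the Mir155 window. None of the 10000 highest Cbfb scores fell in either window.

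**Figure D1:**
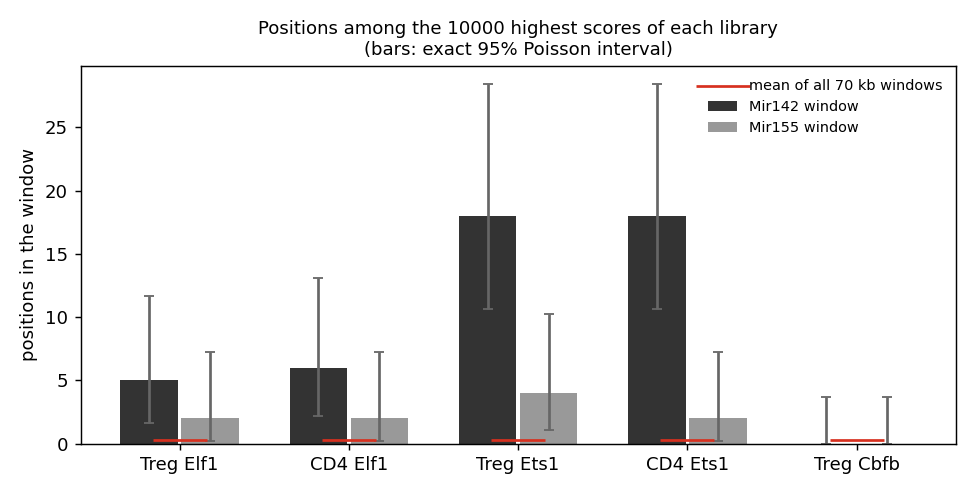
Bars show, for each library, how many of its 10000 highest-scoring positions lay in the Mir142 (dark) and Mir155 (grey) window, with exact 95% Poisson intervals, and red marks show the mean over all 70 kb windows. Ets1 reached 18 positions in the Mir142 window in Treg and in CD4 cells, against 4 and 2 in the Mir155 window, and Cbfb had none in either.

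The highest fold enrichment of either Ets1 library in the whole genome lay in the Mir142 window. The Treg Ets1 position at 87569118 had a fold enrichment of 266 (lower bound 50.0) and the CD4 Ets1 position at 87569116, 2 bp away, 475 (lower bound 90.8). Each ranked 1 by fold in its library. The next highest folds were 210 in Treg Ets1 and 395 in CD4 Ets1. By score the Treg position ranked 35 of 226148 and the CD4 position 6 of 242086.

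This Ets1 maximum was not at a Foxp3 peak. The nearest Foxp3 interval, interval 5, ended 758 bp from the Treg position and 756 bp from the CD4 position. The Treg Elf1 position nearest to the CD4 Ets1 maximum was 898 bp away and 5.71-fold. CD4 Elf1 had 1 at 132 bp with 4.97-fold enrichment, and 1 at 108 bp with 31.5-fold (lower bound 5.12) that missed the FDR limit (FDR 0.0180). The nearest Cbfb position of any FDR was 812 bp away and 2.03-fold.

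The maximum was part of a chain of Ets1 positions in the 3824 bp between Foxp3 intervals 5 and 6, a stretch picked after its values had been seen. Treg Ets1 had 8 positions there, from 5.42-fold to 266-fold with a median of 24.5, and 7 were over 10-fold. CD4 Ets1 had 6, from 20.4-fold to 475-fold with a median of 55.1, all over 10-fold. In the same stretch Treg Elf1 had 3 positions, up to 30.2-fold, and CD4 Elf1 had 5, up to 20.9-fold. Cbfb had none at any FDR.

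Such density was rare but not unique to Mir142. In 5000 bp the Mir142 window reached 5 Treg Ets1 positions over 20-fold and 8 CD4 Ets1 positions over 20-fold. Elsewhere 4 separate stretches of that length had as many in the Treg list and 1 in the CD4 list. The densest of these began on chromosome 10 at 96079658 in Treg, with 6 such positions, and at 96079657 in CD4, with 11. Elf1 showed no such density at Mir142, with at most 1 position over 20-fold per 5000 bp in Treg and 1 in CD4.

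**Figure D2:**
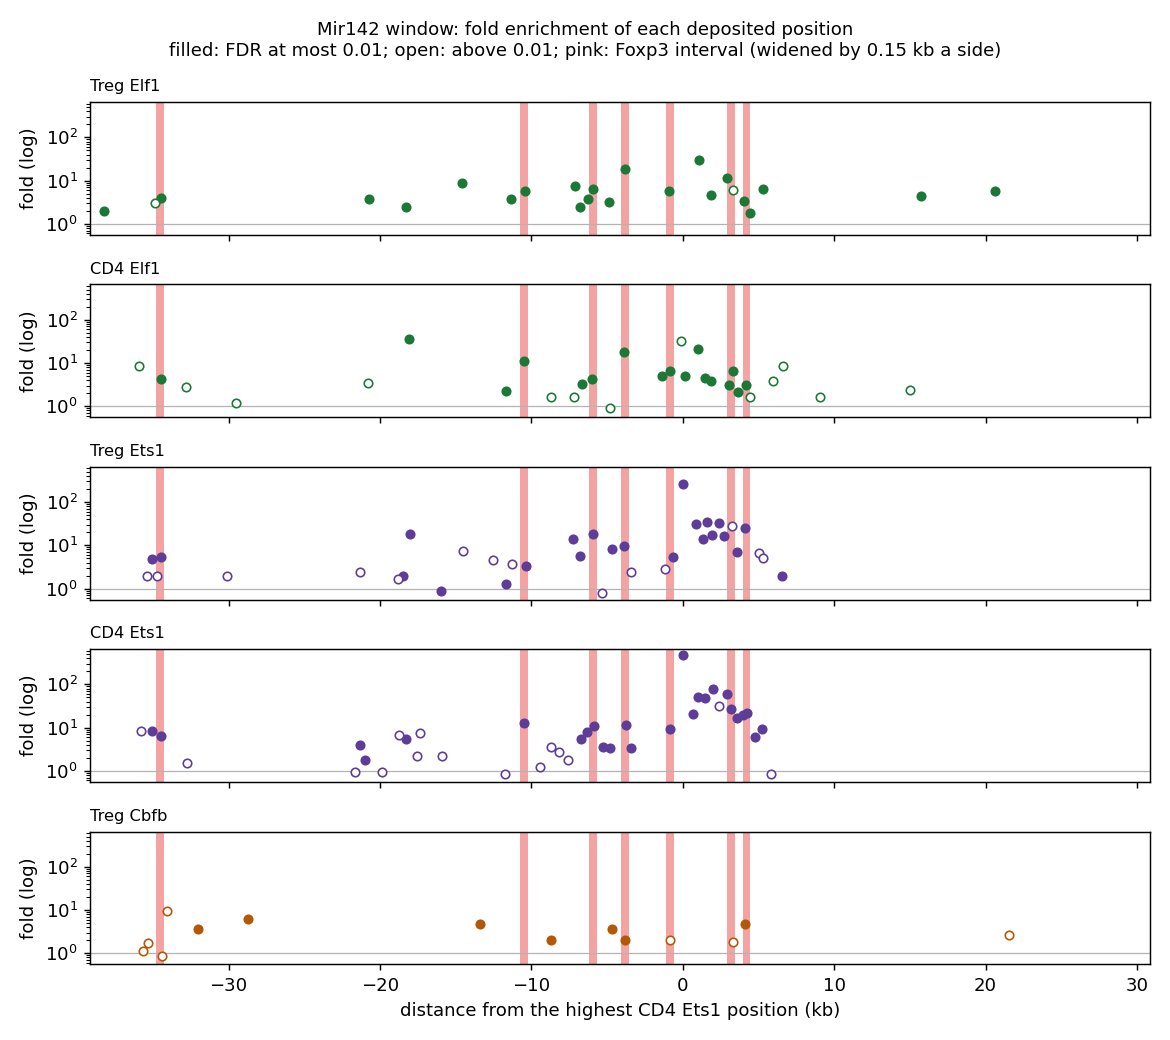
Each point is a deposited position in the Mir142 window, by distance in kb from the highest CD4 Ets1 position and by fold enrichment on a log axis, with 1 row per library, Foxp3 intervals in pink, filled points at an FDR of at most 0.01 and open points above it. Ets1 climbs to 266-fold in Treg and 475-fold in CD4 at distance 0, between the pink bars, and Cbfb stays below 10-fold throughout.

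Most Foxp3 intervals of both windows were occupied by Elf1 and Ets1 in Treg and in CD4 cells. Within 200 bp of the 8 intervals, Treg Elf1 was present at 8 (85.2% of all 2886 intervals), Treg Ets1 at 7 (83.5%), CD4 Elf1 at 8 (88.9%) and CD4 Ets1 at 8 (89% of all). All 4 lists were present at 7 of 8, against 66.1% of all intervals. Treg Cbfb was present at 2 of 8, near the 28.1% of all intervals, and these 2 intervals had all 5 lists, against 20.7% of all. With 8 intervals, shares this near to the genome's are no result about the windows.

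Interval 4, at chr11:87565202-87565402, held the strongest Elf1 of the window by score and all 5 lists. The Treg Elf1 position there was 18.8-fold enriched and ranked 715 by score, against 18.2-fold and rank 2524 for CD4 Elf1. Treg Ets1 was 9.42-fold, against 11.3-fold for CD4 Ets1, and Treg Cbfb 2.03-fold with a lower bound of 0.407. Elf1 and Ets1 thus differed little in fold between the cell types at this site. By score Ets1 ranked 1385 in Treg, against 9906 in CD4, so the ranks were further apart than the folds.

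Interval 2, at chr11:87558546-87558746, was higher in CD4 by fold for both ETS factors. Treg Elf1 was 5.71-fold, against 10.9-fold for CD4 Elf1, and Treg Ets1 3.41-fold, against 12.5-fold for CD4 Ets1. The Treg Ets1 position lay 11 bp outside the interval. By score rank Elf1 went the other way, at 3897 in Treg against 6312 in CD4, while Ets1 ranked 1490 in Treg. The CD4 Ets1 position ranked 896 by score and was the only Ets1 position at a Foxp3 interval of either window in the top 1000 of its library. Interval 3, at chr11:87563105-87563305, went the other way by fold, but not by score. Treg Elf1 was 6.36-fold there, against 4.31-fold for CD4 Elf1, and Treg Ets1 18.0-fold, against 10.9-fold for CD4 Ets1. By score Treg Elf1 ranked 34243, against 26177 for CD4 Elf1, and Treg Ets1 3615, against 2453 for CD4 Ets1.

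Intervals 5, 6 and 7 flanked the Ets1 chain. At interval 5 (chr11:87568160-87568360) Treg Elf1 was 5.71-fold but ranked only 90467 by score, against 6.44-fold and rank 6237 for CD4 Elf1. Its Treg Ets1 position, 117 bp outside the interval, was 5.42-fold, against 9.16-fold for the CD4 Ets1 position inside it. At interval 6 (chr11:87572184-87572384) no Treg Ets1 position passed, while CD4 Ets1 was 26.5-fold. A Treg Ets1 position at 87572373, inside interval 6, was 27.3-fold but had an FDR of 0.0458, so the gap at interval 6 is one of the FDR limit and not of fold.

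Treg Elf1 at interval 6 was 11.3-fold at 128 bp outside, against 3.13-fold for CD4 Elf1 at 1 bp outside. By score the order was reversed, at 4.47 in Treg against 7.99 in CD4. A further CD4 Elf1 position, 87572453, was 6.39-fold. The Treg Elf1 position beside it, 87572433, was 5.94-fold but missed the FDR limit (FDR 0.0176). At interval 7 (chr11:87573218-87573418) Treg Ets1 was 25.2-fold, against 22.1-fold for CD4 Ets1, and Cbfb had its highest score in the window, at 4.70-fold. Elf1 was low at interval 7, at 3.43-fold in Treg and 3.08-fold in CD4. The lone interval 1 (chr11:87534502-87534702) had all 4 ETS lists at modest folds. Treg Elf1 was 3.95-fold, against 4.21-fold for CD4 Elf1, and Treg Ets1 5.38-fold, against 6.26-fold for CD4 Ets1.

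The single Foxp3 interval of the Mir155 window, at chr16:84735438-84735638, carried all 4 ETS lists inside it and no Cbfb position. Treg Elf1 was 8.74-fold, against 6.07-fold for CD4 Elf1, and Treg Ets1 5.10-fold, against 8.50-fold for CD4 Ets1. By score the Treg Ets1 position ranked 2399, against 1869 for CD4 Ets1, and the Treg Elf1 position 6440, against 6974 for CD4 Elf1. It was thus among the 10000 highest scores of all 4 ETS libraries. In the Mir142 window 20 of the 29 pairs of a Foxp3 interval and a position reached the 10000 highest scores. The same share over all Foxp3 intervals was not computed, so nothing about the windows is read from these counts.

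Seen from the other side, most ETS positions of the windows were away from Foxp3. At a Foxp3 interval lay 8 of 22 Treg Elf1 positions of the Mir142 window (1.8% of the whole list), 6 of 23 for Treg Ets1 (4.14%), 2 of 7 for Treg Cbfb (0.65%), 8 of 17 for CD4 Elf1 (4.87%) and 9 of 26 for CD4 Ets1 (6.49%). The window was picked for its Foxp3 intervals, so nothing is read from the excess. In the Mir155 window each of the 4 ETS lists had 1 position at Foxp3 and Cbfb had 0. Of the 5 Treg Ets1 positions of the Mir142 window in the top 1000 by score, 0 lay at a Foxp3 interval, and of the 5 for CD4 Ets1, 1 did. Over the whole genome 30.4% of the top 1000 Treg Ets1 positions and 35.2% of the top 1000 CD4 Ets1 positions lay at a Foxp3 interval. This contrast rested on few positions and on the cutoff. In the top 2000, 4 of 12 Treg Ets1 positions of the window lay at one (30.55% over the genome), and 1 of 5 for CD4 Ets1 (35.25%). In the top 10000, 6 of 18 Treg Ets1 positions did (17.54%), and 9 of 18 for CD4 Ets1 (20.17%).

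Positions of the cell types were then paired when each was the other's nearest neighbour within 200 bp. In the Mir142 window 10 of 22 Treg Elf1 positions had a CD4 partner (10.9% of all Treg Elf1 positions), as did 10 of 17 CD4 Elf1 positions in Treg (32.2%). For Ets1, 15 of 23 Treg positions had a CD4 partner (18.3%), and 15 of 26 CD4 positions a Treg partner (26.9%). The Mir155 window had 4 Elf1 pairs, from 11 Treg and 5 CD4 positions, and 4 Ets1 pairs, from 8 Treg and 4 CD4 positions. These shares were above those of the whole lists, but nothing is read from the excess at Mir142, since 7 of its 10 Elf1 pairs and 5 of its 15 Ets1 pairs lay at the Foxp3 intervals the window was picked for.

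Among partners, Ets1 in the Mir142 window was mostly lower in the Treg library. The median fold was 9.42 in Treg and 12.5 in CD4, and the median Treg minus CD4 log2 ratio of fold was -0.81 (SD over 15 positions 1.02), lower in Treg at 11 of 15. Over all 11317 Ets1 pairs of the genome the median was -0.44 (SD 1.13) and 68.4% were lower in Treg. With 15 pairs, a count this near to the genome's share is no result about the window. Relative to that genome median the window stood at -0.37 by fold but at 0.30 when scores were compared, so its direction against the genome depended on the measure. The difference was at its largest at 87571037, in the chain between intervals 5 and 6, at 17.2-fold in Treg against 77.3-fold in CD4 (log2 ratio -2.16). The opposite extreme, at 87564443, had 8.39-fold in Treg against 3.45-fold in CD4 (1.28).

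The Ets1 pairs were then split by whether the Treg position lay within 200 bp of a Foxp3 interval. At Foxp3 intervals 3 of 5 Ets1 pairs were lower in Treg, with a median of -0.22, and elsewhere in the window 8 of 10, with a median of -1.05. The difference between these groups was not tested. The pair at 87571872 counts as elsewhere, although its CD4 position, 87572041, lay within 200 bp of interval 6. Within each group the ratios ran from negative to positive, from -1.88 to 0.72 at Foxp3 and from -2.16 to 1.28 elsewhere, so the groups overlap.

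Elf1 showed no common direction in the Mir142 window. The median log2 ratio over 10 pairs was 0.098 (SD 0.73), with 6 higher and 4 lower in Treg, against -0.17 (SD 1.1) over 17253 pairs of the genome. By score the median turned to -0.96, but relative to the genome median by score it was 0.33. The ratio by fold ranged from -0.93, at 87558711 in interval 2, to 1.85, at 87572056 beside interval 6. In the Mir155 window the median was 0.49 over 4 Elf1 pairs (SD 1.02) and 0.014 over 4 Ets1 pairs (SD 1.06). Neither direction held: the Elf1 median was -0.37 at an FDR of at most 0.001 and -1.55 by score, and the Ets1 median -0.64 by score. Relative to the genome median by score, Elf1 stood at -0.26 and Ets1 at 0.30. The Elf1 ratios there ran from -1.26 at 84714286 to 1.09 at 84713634, and the Ets1 ratios from -0.87 at 84713625 to 1.24 at 84703592.

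**Figure D3:**
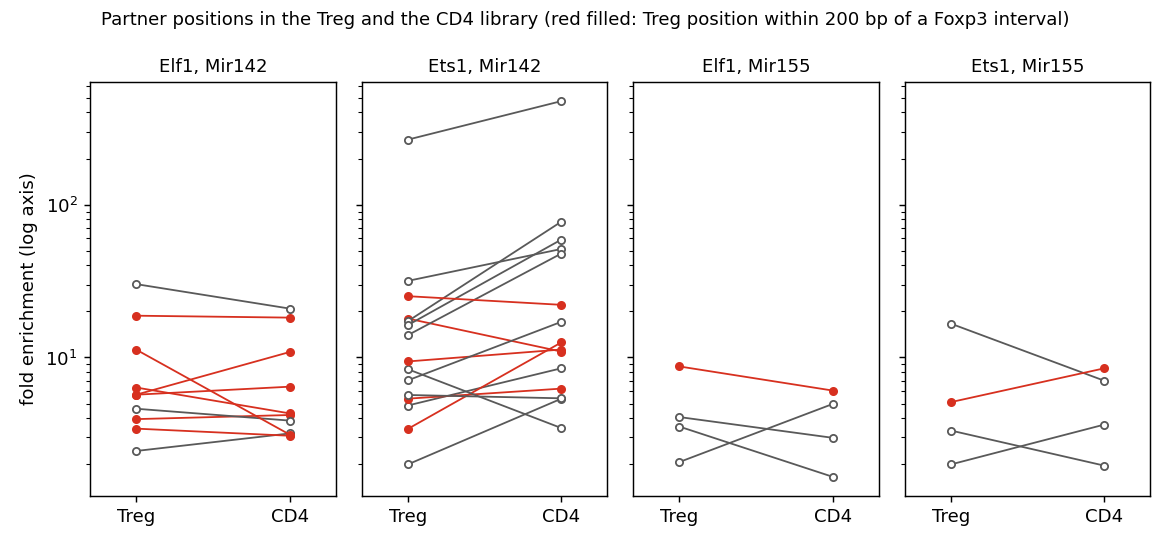
Lines join the fold enrichment, on a log axis, of partner positions in the Treg (left) and CD4 (right) library, by factor and window, with pairs whose Treg position lay within 200 bp of a Foxp3 interval in red. In the Ets1 panel of Mir142, 11 of 15 lines are lower in Treg, near the 68.4% of all Ets1 pairs of the genome. The pair on top is 266-fold in Treg and 475-fold in CD4. The Elf1 panel of Mir142 and both Mir155 panels run in both directions.

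Positions of the 5 lists and Foxp3 midpoints were next joined into sites where neighbours lay at most 200 bp apart. The Mir142 window held 42 sites, 20 of them with positions of both cell types, 16 in Treg only and 6 in CD4 only. The Mir155 window held 18, of which 4 had both cell types, 13 were in Treg only and 1 in CD4 only. Over the genome 7.13% of 371087 sites had both cell types. Treg had 3 lists and CD4 2, and the Treg lists were longer, so the Treg-only counts are not a measure of the cells.

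Sites with at least 4 of the 5 lists numbered 10 in the Mir142 window and 4 in the Mir155 window, against 2.06% of all sites. At an FDR of at most 0.001 the Mir155 window held 1 such site. Of the 10 and 4 sites, 6 at Mir142 and 1 at Mir155 held a Foxp3 interval, against 25.2% of such sites in the genome. The Mir142 window was picked for its Foxp3 intervals, so nothing is read from its excess in either count. The other sites held ETS positions of both cell types without a Foxp3 peak. At Mir142 these 4 spanned chr11:87562329-87562431, chr11:87564241-87564453, chr11:87569787-87570163 and chr11:87570976-87571127. The second reached 4 lists only through Cbfb, since its CD4 Elf1 position, 87564297, missed the FDR limit (FDR 0.0140). With the Cbfb list left out, the Mir142 window held 9 sites with at least 4 lists. The third held the highest Treg Elf1 fold of the window, 30.2, against 20.9 for its CD4 partner. The highest CD4 Elf1 fold, 35.9 at 87551039, lay outside these sites, with a Treg Ets1 position of 18.0-fold 70 bp away. A Treg Elf1 position at 87550831 (2.45-fold) and a CD4 Ets1 position at 87550838 (5.38-fold) were just beyond the 200 bp limit. They were thus counted in a neighbouring site.

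At Mir155 the 3 joint sites without Foxp3 spanned chr16:84703558-84703597, chr16:84713556-84713851 and chr16:84714286-84714393. The first held the highest Treg Ets1 position of that window by score and by fold, at 16.6-fold and rank 1718, against 7.04-fold for CD4 Ets1 and rank 6925. Its 4 positions lay within 39 bp. At the third, Treg Elf1 at 84714286 was 2.07-fold with rank 50270, against 4.97-fold and rank 6445 for CD4 Elf1 at 84714336, the highest CD4 Elf1 score of the window. Here Treg Ets1 ranked 3007, against 24661 for CD4 Ets1, with folds of 3.33 and 1.96.

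Some strong Elf1 and Ets1 positions of the Mir155 window passed in 1 cell type. Treg Elf1 at 84682515 had the highest Elf1 score of the window in Treg, rank 3272 and 8.74-fold. Within 200 bp it had CD4 Elf1 and CD4 Ets1 positions that did not pass, at an FDR of 0.165 and 0.177. Treg Ets1 at 84726026 was 9.99-fold and had no CD4 position of any FDR within 200 bp. Cbfb, for which there was no CD4 list to compare, had its highest fold in that window, 13.1, at 84700871, with a lower bound of 1.24 and no ETS position within 200 bp.

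**Figure D4:**
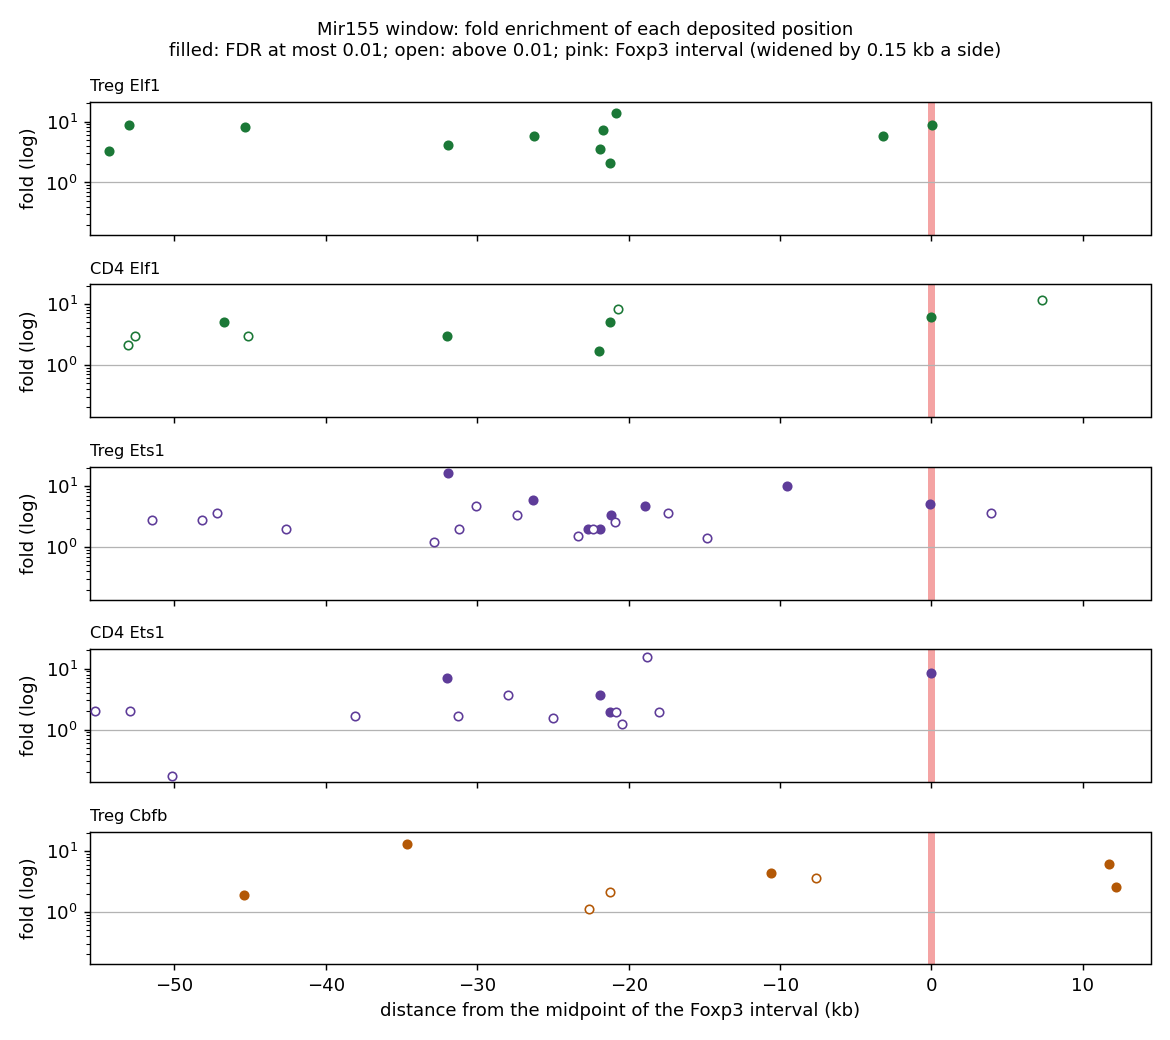
Each point is a deposited position in the Mir155 window, by distance in kb from the midpoint of its Foxp3 interval (pink) and by fold enrichment on a log axis, with filled points at an FDR of at most 0.01 and open points above it. All 4 ETS libraries have a filled point at the Foxp3 interval, from 5.10-fold to 8.74-fold, and no filled point exceeds 16.6-fold.

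Weak positions made up part of both windows. Of the 7 Treg Cbfb positions at Mir142, 5 had a lower bound under 1, as had 11 of 22 for Treg Elf1, 4 of 23 for Treg Ets1, 4 of 17 for CD4 Elf1 and 1 of 26 for CD4 Ets1. At Mir155 the counts were 4 of 5 for Treg Cbfb, 4 of 11 for Treg Elf1, 3 of 8 for Treg Ets1, 3 of 5 for CD4 Elf1 and 1 of 4 for CD4 Ets1. Low folds also repeated exactly: among the deposited Treg Ets1 positions the value 2.00 stood 5 times in each window. Ratios between such positions rest on coarse steps.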

How the data were processed

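Reads had been aligned by the authors with Bowtie 0.12.7 to mm9, per the submitters' processing notes. For the peak caller, its thresholds, the control and the read depths, nothing is given in the sources used here. Per the file headers, each deposited position has a score, an E-value, an FDR (a q-value, treated like a p-value) and a linear fold enrichment (a ratio) as lower bound and maximum likelihood estimate. The Foxp3 list gives the start and end of intervals from combined replicates, per the labels. No E-value was used.

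Within the windows, positions were counted at FDR values up to 0.01. A Foxp3 interval was shared with a position at most 200 bp from it, and the nearest one gave its values. Partners were mutual nearest neighbours within 200 bp. Sites joined neighbours at most 200 bp apart. The highest score is rank 1. Values named are every Foxp3 interval, the highest score or fold per library and window, joint sites, and the extreme ratios of partners; the Ets1 chain, repeated folds and positions in 1 cell type were named after their values were seen. Members, lists and rules were chosen with earlier results of these data known. The functions were tested on simulated lists. Alternatives were other FDR limits, list lengths, distances, window limits and measures. Python 3.11.15, numpy 2.4.6, pandas 2.3.3, scipy 1.17.1 and matplotlib 3.10.9 were used.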

Additional observations from a re-analysis of the deposited data

How the results depend on the processing

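No paired analysis was possible because each position list came from 1 library and the Foxp3 replicates were pooled. For the same reason no library could be left out as a replicate. Summed over the 5 lists, the Mir142 window held 95 positions and the Mir155 window 33. Without an FDR limit the numbers were 146 and 66. They were 47 and 10 with the 10000 highest scores, 56 and 14 with the 20000 highest, and, at Mir155, 19 at an FDR of at most 0.001. Joint sites at Mir142 numbered 22, with 12 in both cell types, at 500 bp linkage, and with all deposited positions 33 were in both. At Mir155 there were 10 sites at an FDR of at most 0.001, and with all deposited positions 42, with 8 in both cell types. Summed over lists, 33 pairs of a Foxp3 interval and a list were occupied, and the alternatives run gave 24 to 37.

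The Treg minus CD4 median for Ets1 at Mir142 stayed negative under all alternatives run, but relative to the genome median it turned to 0.30 by score, from -0.37 by fold. The small Elf1 medians changed sign. At Mir142 they were -0.024 at an FDR of at most 0.001 (0.22 relative to the genome), -0.96 by score (0.33 relative) and -0.058 by lower bound (0.26 relative). With all deposited positions the Mir142 value relative to the genome was -0.052. At Mir155 the Elf1 medians were -0.37 at an FDR of at most 0.001 (-0.13 relative to the genome), -1.55 by score (-0.26 relative) and -0.0056 by lower bound (0.32 relative). Ets1 at Mir155 turned to -0.64 by score (0.30 relative) and -0.24 by lower bound (0.46 relative). The causes were not tested. Centring on the genome and leaving out Cbfb were added after the data had been seen. Of 105 recomputed counts for single libraries and for sites with at least 4 lists, 40 moved by over 1.5 times. Unknown depth and 1 library per group limit every comparison of cell types.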
